A study of Homo sapiens with 12 samples.

Results

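The hypoxia response and glycolysis genes described here are 40 genes chosen by name out of 58302 genes counted. They comprise 5 genes of oxygen sensing and the hypoxia-inducible factors (HIF), 3 transporters of glucose and lactate, 14 glycolytic enzyme genes, 2 PFKFB enzymes, 3 genes that set the fate of pyruvate and 13 other targets of HIF. Each of the 40 matched 1 Ensembl gene, and 40 of 40 passed the low-count filter that left 23238 genes for testing.

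Polyadenylated RNA was counted in 12 libraries of the human prostate cancer cell lines 22Rv1 and PC3, in 6 groups of n = 2. 22Rv1 came from a xenograft and PC3 from a bone metastasis. Cells of each line carried ETV4AAA-IRES-eGFP (mutated ETV4), ETV4WT-IRES-eGFP (wild-type ETV4) or the control IRES-eGFP, which also expresses the fluorescent protein, and the labels name both a lentivirus and the vector MSCV-IRES-GFP. Live cells, negative for DAPI and positive for eGFP, were sorted 1 week after infection. ETV4 is an ETS transcription factor that gene fusions activate in some prostate tumours. The sources used here do not state which residues differ in ETV4AAA, the oxygen level of the cultures or whether replicates were separate cultures, so the p-values measure the spread between these libraries, which may be technical.

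Cells adapt to low oxygen through HIF, a pair of proteins whose alpha subunit is hydroxylated by the EGLN enzymes when oxygen is present, bound by VHL and destroyed. When hydroxylation stops, the alpha subunit pairs with ARNT and binds hypoxia response elements near genes for glucose uptake, glycolysis, lactate export and control of pH. Many tumours keep these genes on in the presence of oxygen, and the ordinary glycolytic enzymes are also among the most abundant transcripts of any growing cell.

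The libraries held 41698738 to 50226044 counts in 22Rv1 and 43572713 to 51199207 counts in PC3, and the 40 genes took 2.17% to 3.02% and 1.44% to 1.97% of them. In 22Rv1, ETV4 stood at 389.9 and 281 CPM (counts scaled to the size of the library) in the ETV4AAA libraries, 385 and 484 CPM in the ETV4WT libraries and 31.2 and 24.9 CPM in the eGFP libraries. In PC3 it stood at 223 and 109 CPM in the libraries labelled ETV4AAA, 215 and 112 CPM in those labelled ETV4WT and 116 and 126 CPM with eGFP. Replicate 2 of both PC3 constructs was thus below the eGFP libraries, against its label. The PC3 groups are therefore named by their labels below, and counts are also given without both of these libraries. In both groups the replicates also differed along with the base composition of the transcripts, as described below. The part of base composition in the ETV4 level was not tested. Of the luminal prostate markers listed, KLK2, KLK3, FOLH1 and TMPRSS2 were detected in 22Rv1 and at or near 0 in PC3, whereas HOXB13, KRT8 and KRT18 were detected in both, HOXB13 at 656 CPM in 22Rv1 eGFP and 605 CPM in PC3 eGFP. Of 6 genes listed as PC3 markers, CAV1, CAV2, AXL, VIM and CD44 were higher in the PC3 eGFP libraries, but TGFBI was near 0 there (0.0316 CPM, against 0.493 CPM in 22Rv1 eGFP). In 22Rv1 the sum of these 6 was 717 and 723 CPM in ETV4AAA libraries, 260.0 and 267 CPM in ETV4WT libraries and 129.5 and 141 CPM in eGFP libraries. TGFBI (266 CPM) and CD44 (429 CPM) made up most of the ETV4AAA sum. The leukocyte markers PTPRC and CD3E were at or near 0 in 22Rv1. The part of these markers in the results below was not tested, and in bulk RNA fewer cells of a type and less RNA per cell cannot be told apart.

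Promoter sequences from RefSeq (build GRCh38.p14) were available for 36 of the 40 genes, each running from 250 bases before to 50 bases after 1 annotated start. The core of the hypoxia response element was searched as ACGTG or GCGTG on both strands, so that CACGTG counts as 2 overlapping matches. It occurred in 30 of 36 promoters (83.3%), against 47.5% of 27305 promoters in the table, and at least 2 matches occurred in 38.9% and 22.6%. The ETS core CCGGAAG, searched on both strands, was in 3 of 36 (8.33%; ANKRD37, GPI and LDHA), against 10.5% of all promoters. The genes were chosen by name as hypoxia and glycolysis genes, and the 27305 promoters were not matched to them in base composition. Each core searched holds the letters CG, and the part of base composition in these shares was not tested. A match describes these letters and does not show a bound site. The 6 promoters below are shown because their genes carry the main results: ADM and EGLN3 rose most with ETV4AAA in 22Rv1, PGK1 and BNIP3 were higher with ETV4WT than with ETV4AAA there, and CA12 and SLC2A1 changed in opposite directions in the 2 lines. Capitals mark the hypoxia response element core, and each sequence runs 5′ to 3′ on the strand of its gene, at chr11:10304823-10305122 (ADM, plus strand), chr14:33951025-33951324 (EGLN3, minus), chrX:78103998-78104297 (PGK1, plus), chr10:131981874-131982173 (BNIP3, minus), chr15:63381797-63382096 (CA12, minus) and chr1:42958819-42959118 (SLC2A1, minus).
ADM: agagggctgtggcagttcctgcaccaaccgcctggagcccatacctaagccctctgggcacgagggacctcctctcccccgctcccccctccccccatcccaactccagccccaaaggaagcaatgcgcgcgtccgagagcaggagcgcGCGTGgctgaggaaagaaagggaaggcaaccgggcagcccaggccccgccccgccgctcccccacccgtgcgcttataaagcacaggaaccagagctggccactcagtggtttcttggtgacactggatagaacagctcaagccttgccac
EGLN3: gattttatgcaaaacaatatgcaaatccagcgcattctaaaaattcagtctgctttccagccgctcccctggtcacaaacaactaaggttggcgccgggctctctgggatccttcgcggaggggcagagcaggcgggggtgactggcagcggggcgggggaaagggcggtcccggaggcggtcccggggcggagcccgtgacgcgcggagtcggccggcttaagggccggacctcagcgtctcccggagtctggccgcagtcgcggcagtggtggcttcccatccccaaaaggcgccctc
PGK1: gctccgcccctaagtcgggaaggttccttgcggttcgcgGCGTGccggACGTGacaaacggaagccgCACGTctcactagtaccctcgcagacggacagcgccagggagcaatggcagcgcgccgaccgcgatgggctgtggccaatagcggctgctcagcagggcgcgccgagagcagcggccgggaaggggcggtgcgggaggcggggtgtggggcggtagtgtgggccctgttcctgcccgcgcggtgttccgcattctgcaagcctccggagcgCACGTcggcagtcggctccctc
BNIP3: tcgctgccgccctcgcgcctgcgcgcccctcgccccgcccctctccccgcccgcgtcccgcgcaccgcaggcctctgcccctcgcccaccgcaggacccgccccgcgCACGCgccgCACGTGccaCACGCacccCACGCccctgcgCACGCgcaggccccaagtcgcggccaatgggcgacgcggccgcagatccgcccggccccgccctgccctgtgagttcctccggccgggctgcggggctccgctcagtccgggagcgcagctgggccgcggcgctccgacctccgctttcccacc
CA12: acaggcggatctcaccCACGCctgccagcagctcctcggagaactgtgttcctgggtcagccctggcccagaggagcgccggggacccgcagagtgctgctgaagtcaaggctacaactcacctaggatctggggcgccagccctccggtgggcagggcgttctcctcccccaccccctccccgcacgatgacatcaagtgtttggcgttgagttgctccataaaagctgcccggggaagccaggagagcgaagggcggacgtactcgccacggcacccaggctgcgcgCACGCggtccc
SLC2A1: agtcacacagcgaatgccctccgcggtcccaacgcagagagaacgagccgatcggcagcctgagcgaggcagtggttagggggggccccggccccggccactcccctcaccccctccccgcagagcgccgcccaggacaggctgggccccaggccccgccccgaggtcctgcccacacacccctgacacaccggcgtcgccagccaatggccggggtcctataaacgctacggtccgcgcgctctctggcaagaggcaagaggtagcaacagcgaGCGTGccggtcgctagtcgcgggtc

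The cores are unevenly spread over these 6 windows. The BNIP3 window holds 6 in 1 cluster before the start, and the PGK1 window 4, of which 3 lie near its upstream end and 1 close to the start. The ADM and SLC2A1 windows hold 1 each and the CA12 window 2. The EGLN3 window holds 0, which says only that these letters are not in this stretch. By GENCODE 29 the genes themselves span chr11:10304680-10307397 (ADM, ENSG00000148926), chr14:33924231-34462774 (EGLN3, ENSG00000129521), chrX:77910739-78129296 (PGK1, ENSG00000102144), chr10:131966455-131982013 (BNIP3, ENSG00000176171), chr15:63321378-63382161 (CA12, ENSG00000074410) and chr1:42925375-42959176 (SLC2A1, ENSG00000117394), all protein coding.

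Between the eGFP libraries, 27 of the 40 genes differed at an adjusted p under 0.05, 7 higher and 20 lower in 22Rv1 than in PC3, while 70.9% of all genes differed (edgeR's quasi-likelihood test, Benjamini-Hochberg adjustment), so that the 40 differed about as often as other genes. The widest differences were those of CA9 and PFKP. The median log2 difference of the 40 was -0.33, against 0 over all genes, but it was 0.01 with upper-quartile scaling, which moved the median of all genes by 0.32. Carbonic anhydrase CA9, a membrane enzyme that buffers pH and is a common hypoxia marker, was at 0.103 and 0.0823 CPM in 22Rv1 and 26.8 and 29.3 CPM in PC3, a log2 difference of -8.20 ± 0.54, adjusted p = 5.25e-08. PFKP, the platelet subunit of phosphofructokinase, was at 3.02 and 2.02 CPM in 22Rv1 and 164 and 174 CPM in PC3 (-6.07 ± 0.30, adjusted p = 4.42e-09). CA9 was nearly absent from 22Rv1 and PFKP was low there, and the libraries of the lines did not overlap for either gene. For 33 of the 40 genes the libraries of the 2 lines did not overlap, when 87.5% of all genes did not overlap.

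Of the HIF alpha subunits, HIF1A and EPAS1 were lower in 22Rv1. HIF1A averaged 87.6 ± 8.08 CPM in 22Rv1 and 478 ± 7.37 CPM in PC3 (SD, n = 2 each), a log2 difference of -2.45 ± 0.15, adjusted p = 2.34e-08, and EPAS1 averaged 3.93 ± 0.411 CPM and 27.3 ± 1.03 CPM (-2.79 ± 0.17, adjusted p = 2.74e-08). HIF3A, the third alpha subunit and none of the 40, had 24 counts in 22Rv1 and 1 in PC3, a ratio of 23.7 (95% exact interval 3.87 to 976, counting error only). Also higher in 22Rv1, ALDOC, the aldolase of brain and other neural tissue, averaged 168 ± 14.9 CPM in 22Rv1 and 16.8 ± 1.59 CPM in PC3 (3.33 ± 0.25, adjusted p = 1.52e-07). ANGPTL4, a secreted inhibitor of lipoprotein lipase, was likewise higher in 22Rv1 (2.64 ± 0.40, adjusted p = 8.31e-05), as were TPI1 (1.60 ± 0.20, adjusted p = 1.88e-05) and GAPDH (1.11 ± 0.19, adjusted p = 0.000256). HK2, PDK1, PFKFB3, ERO1A and P4HA1 were all lower in 22Rv1, with log2 differences from -2.09 for ERO1A to -0.95 for P4HA1.

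Per kilobase of exon, GAPDH had the highest level of the 40 genes in the eGFP libraries of both lines, at 1881 CPM per kilobase in 22Rv1 and 872 CPM per kilobase in PC3. TPI1 followed in 22Rv1 at 1163 CPM per kilobase, while LDHA followed in PC3 at 599 CPM per kilobase. SLC2A3 had the lowest level in both, at 0.0167 CPM per kilobase in 22Rv1 and 0.00687 CPM per kilobase in PC3. ALDOA was the third highest in 22Rv1 and LDHB in PC3, so that the upper end was filled by glycolytic enzymes and lactate dehydrogenase.

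**Figure D1:**
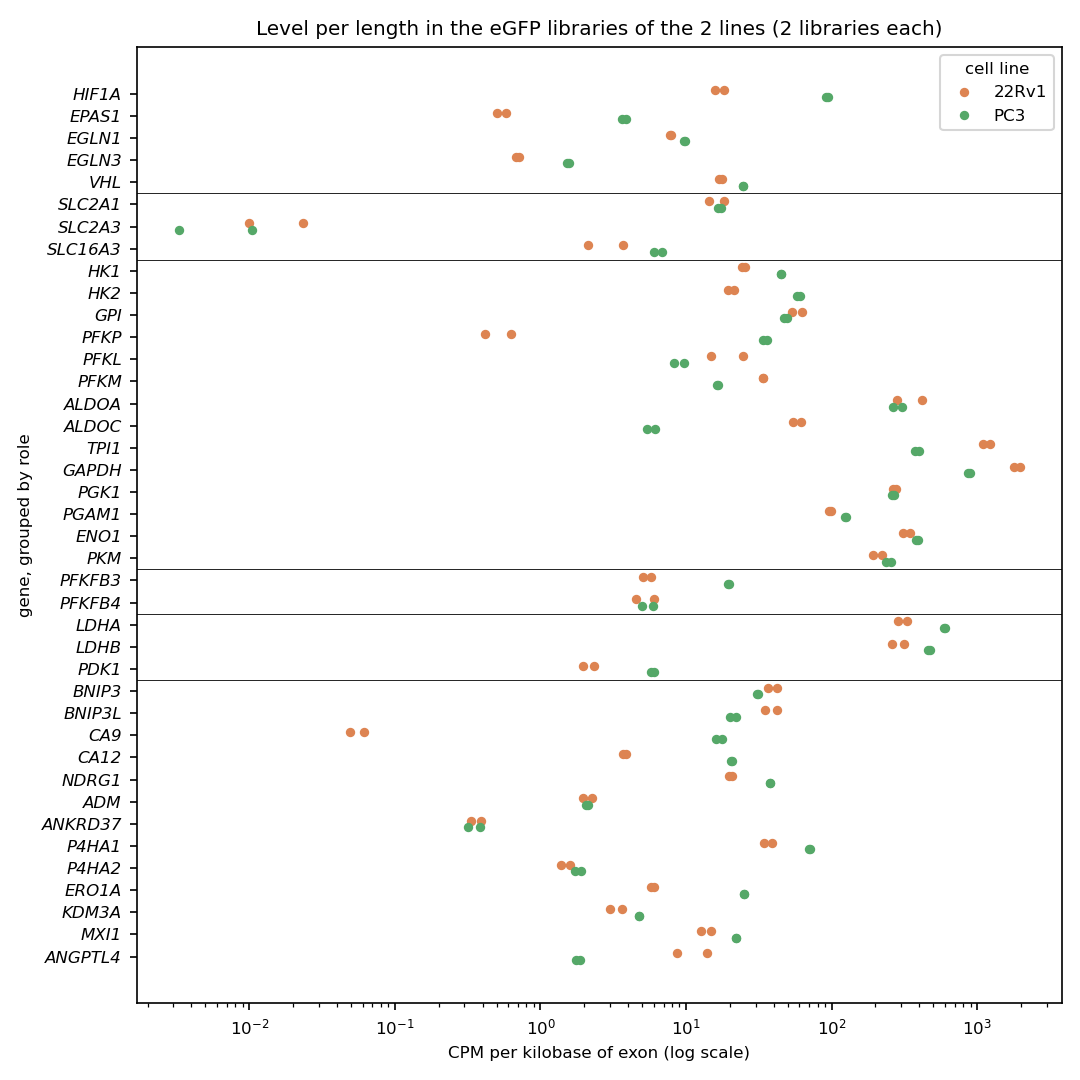
Level of each of the 40 genes in the eGFP libraries, in CPM per kilobase of exon on a log axis, with 2 points for 22Rv1 (orange) above 2 points for PC3 (green) and genes grouped by role. CA9, PFKP, EPAS1 and HIF1A lie to the left in 22Rv1, whereas ALDOC, ANGPTL4, TPI1 and GAPDH lie to the right.

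With ETV4AAA in 22Rv1, 15 of the 40 genes rose against eGFP and 1 fell, when 31.8% of all genes changed (17.4% up, 14.4% down). The genes that rose were ADM, EGLN3, SLC2A3, ALDOC, ANKRD37, PFKP, P4HA2, KDM3A, BNIP3L, PFKFB3, P4HA1, HIF1A, SLC2A1, ENO1 and CA12, and NDRG1 fell. The median log2 change of the 40 was 0.30, against -0.001 over all genes, and the libraries did not overlap for 29 of 40 genes, when 65.4% of all genes did not overlap. The share called was 40%, not far above that of all genes, while 15 of the 16 were rises. The other HIF targets supplied 7 of these rises and the 14 glycolytic enzymes 3. ADM, ALDOC, ANKRD37, BNIP3L, EGLN3, HIF1A, KDM3A, P4HA1, P4HA2 and PFKFB3 passed in all 12 alternative settings, which varied the scaling, the filter, the tool, the libraries included and the correction for base composition. CA12 passed in 11 of them, PFKP and SLC2A1 in 10, ENO1 in 7, SLC2A3 in 6 and NDRG1 in 5.

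With ETV4WT in 22Rv1, 6 of the 40 genes rose and 0 fell, when 1.5% of all genes changed (1.06% up, 0.439% down). They were PGK1, EGLN3, BNIP3, CA12, LDHA and BNIP3L. The median log2 change was 0.51, against 0.01 over all genes, and 35 of the 40 changes were above 0. For 36 of 40 genes the libraries did not overlap, when 45.5% of all genes did not overlap. Leaving out 1 library moved the count of called genes to 0 without eGFP replicate 1 (0.5% of all genes), 2 without ETV4WT replicate 1 (0.488%) or eGFP replicate 2 (0.536%), and 4 without ETV4WT replicate 2 (1.33%). PGK1 and CA12 passed in 11 of the 12 alternative settings, BNIP3 in 9, LDHA in 8, EGLN3 in 7 and BNIP3L in 6.

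Between the constructs in 22Rv1, 6 genes were higher and 6 lower with ETV4AAA than with ETV4WT, when 23.5% of all genes differed (13.9% up, 9.62% down). ADM, EGLN3, EPAS1, KDM3A, PFKFB3 and SLC2A3 were higher with ETV4AAA, and BNIP3, LDHA, PDK1, NDRG1, PGK1 and PGAM1 were lower. The median log2 difference was -0.11, against -0.03 over all genes, and the libraries did not overlap for 32 of 40 genes, when 61.2% of all genes did not overlap. ADM, BNIP3, EGLN3 and SLC2A3 passed in all 12 alternative settings. PGAM1 and PGK1 passed in 11, LDHA and PDK1 in 10, EPAS1 and PFKFB3 in 9 and KDM3A and NDRG1 in 8. Without ETV4WT replicate 1 the count was 6 (15% of all genes), and without ETV4AAA replicate 1 it was 4 (14.1%).

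In PC3 most of the genes that passed were lower with a construct. Between the libraries labelled ETV4WT and eGFP, 14 of the 40 genes fell and 2 rose, when 23.4% of all genes changed (12.7% up, 10.7% down). PFKFB4, SLC16A3, ANGPTL4, SLC2A1, ADM, CA12, PFKFB3, EPAS1, PFKP, PKM, GPI, HK1, KDM3A and PGAM1 fell, and SLC2A3 and VHL rose. The median log2 change was -0.39, against 0 over all genes, 35 of 40 changes were below 0, and the libraries did not overlap for 33 of 40 genes, when 64% of all genes did not overlap. The other 24 genes did not pass. Without both construct libraries of replicate 2, 9 of the 16 calls were kept (8 falls, 1 rise) and 0 were gained, when 16.6% of all genes changed. ADM, CA12, EPAS1, PFKFB3, PFKFB4, SLC2A1 and SLC2A3 passed in all 13 alternative settings. Leaving out 1 library gave 22 calls without ETV4WT replicate 1 (25.8% of all genes), 8 without ETV4WT replicate 2 (13.4%), 7 without eGFP replicate 1 (11.8%) and 7 without eGFP replicate 2 (10.4%).

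In the PC3 libraries labelled ETV4AAA, only SLC2A1 of the 40 genes passed against eGFP, a fall, when 3.69% of all genes changed (2.45% up, 1.24% down). The median log2 change was -0.14, against 0 over all genes, with 16 changes above 0 and 24 below, and the libraries did not overlap for 22 of 40 genes, when 53.9% of all genes did not overlap. The count was 5 without ETV4AAA replicate 1 (9.24% of all genes) and 0 without ETV4AAA replicate 2 (1.57%), eGFP replicate 1 (0.874%) or eGFP replicate 2 (0.89%). Compared with the libraries labelled ETV4WT, 5 genes were higher in those labelled ETV4AAA (PFKFB4, CA12, ADM, PFKFB3, PGAM1) and 1 was lower (SLC2A3), when 11% of all genes differed (3.65% up, 7.32% down). The median log2 difference was 0.29, against 0.004 over all genes, and the libraries did not overlap for 18 of 40 genes, when 44.1% of all genes did not overlap. Without both construct libraries of replicate 2, PFKFB4, CA12 and SLC2A3 were kept in this comparison, when 5.54% of all genes differed, and SLC2A1 was kept in the previous one, when 2.43% of all genes changed. CA12 and SLC2A3 passed in all 13 alternative settings, PFKFB3 and PFKFB4 in 10, ADM in 6 and PGAM1 in 3. The count was 2 without ETV4WT replicate 2 (7.61% of all genes) or ETV4AAA replicate 1 (6.76%).

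**Figure D2:**
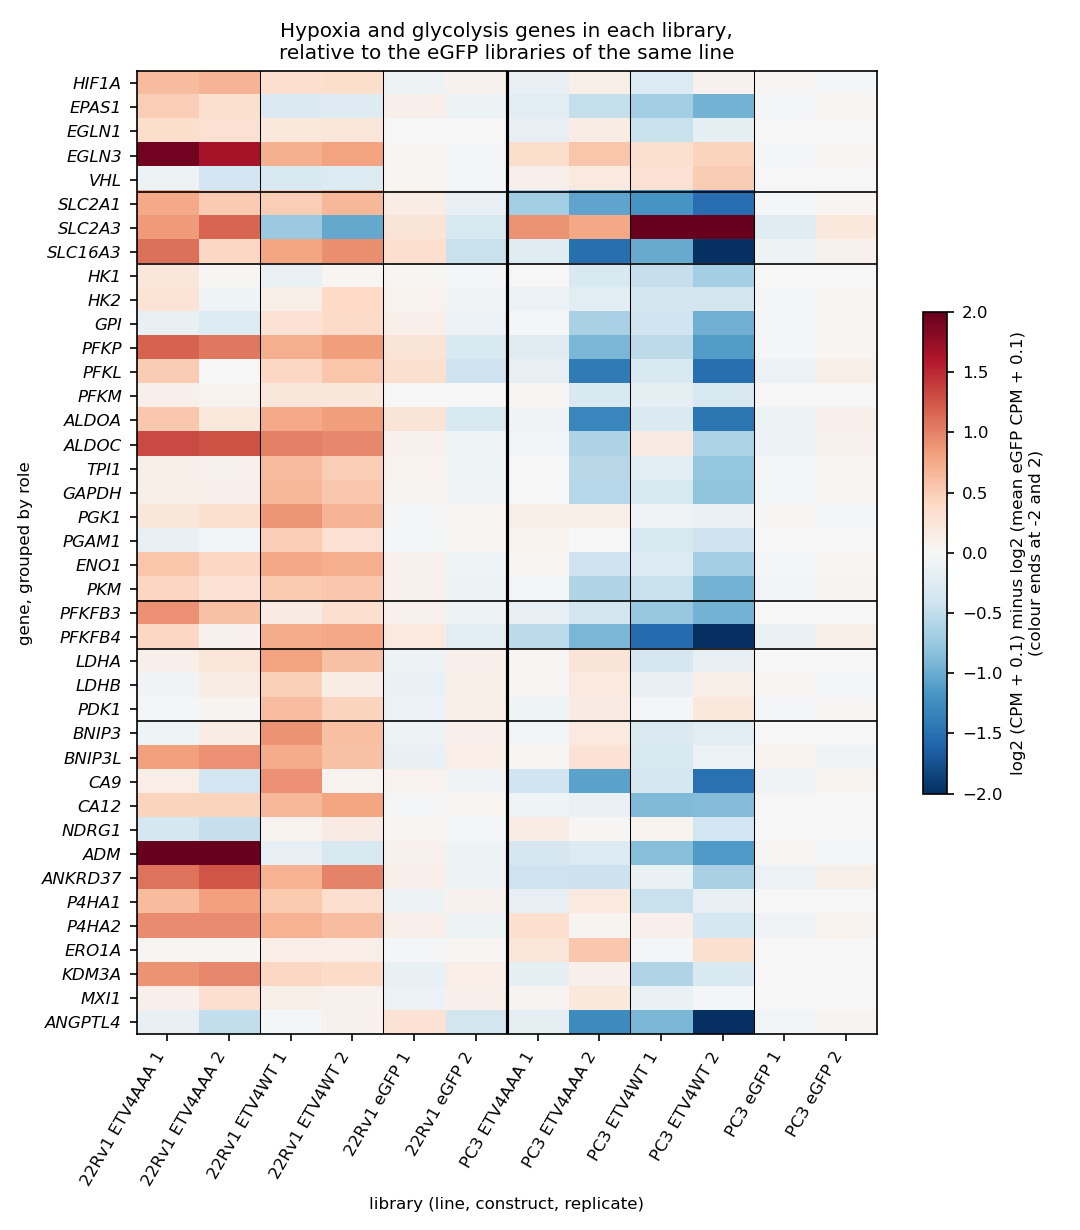
Change of each of the 40 genes (rows, grouped by role) in each of the 12 libraries (columns, 22Rv1 left and PC3 right), as log2 of CPM + 0.1 minus log2 of the mean eGFP CPM + 0.1 of the same line, with colours ending at -2 and 2. Red (higher) fills most of the 22Rv1 construct columns, and blue (lower) most rows of the libraries labelled ETV4WT in PC3.

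The effect of ETV4WT differed between the lines for 22 of the 40 genes, as tested by an interaction contrast, when 12.5% of all genes differed (4.92% up, 7.57% down). For 20 genes the change was more positive in 22Rv1 than in PC3, and for VHL and SLC2A3 less positive. The median difference was 0.88 on the log2 scale, against 0.02 over all genes, and 32 of the 40 genes had a change above 0 in 22Rv1 and below 0 in PC3, 1 of which (CA12) passed the test in both lines. Leaving out any 1 of 7 libraries gave 11 to 14 calls (5.82% to 8.74% of all genes), and leaving out PC3 ETV4WT replicate 1 gave 27 (17.9%). Without both PC3 construct libraries of replicate 2 the count was 23, when 11.2% of all genes differed, and 21 of the 22 calls were kept. BNIP3, CA12, LDHA, PFKFB3, PFKFB4, PGAM1, PGK1 and SLC2A1 passed in all 16 alternative settings. ENO1 and SLC2A3 passed in 15, BNIP3L and PFKP in 12, KDM3A, PKM and VHL in 11, SLC16A3 in 10, ALDOC, GAPDH and TPI1 in 9, GPI in 8, ANKRD37 in 7 and P4HA1 in 6.

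For ETV4AAA, 13 genes differed between the lines, all more positive in 22Rv1, when 16.2% of all genes differed (9.48% up, 6.73% down). The median difference was 0.53, against 0.04 over all genes. The signs were positive in 22Rv1 and negative in PC3 for 21 of 40 genes, and SLC2A1 passed in both lines. Without both PC3 construct libraries of replicate 2 the count was 14, when 15.4% of all genes differed. Both contrasts share the eGFP libraries. The count was 8 with DESeq2 size factors, with upper-quartile factors and in the DESeq2 Wald test (16.3% to 16.6% of all genes). It was also 8 without either PC3 eGFP replicate, 22Rv1 ETV4AAA replicate 2 or 22Rv1 eGFP replicate 1 (9.46% to 12.8%). ADM, ALDOC, ANKRD37, EGLN3, KDM3A, PFKFB3 and SLC2A1 passed in all 16 alternative settings. PFKP passed in 15, P4HA1 in 8, BNIP3L and HIF1A in 7, CA12 in 6 and EPAS1 in 4.

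**Figure D3:**
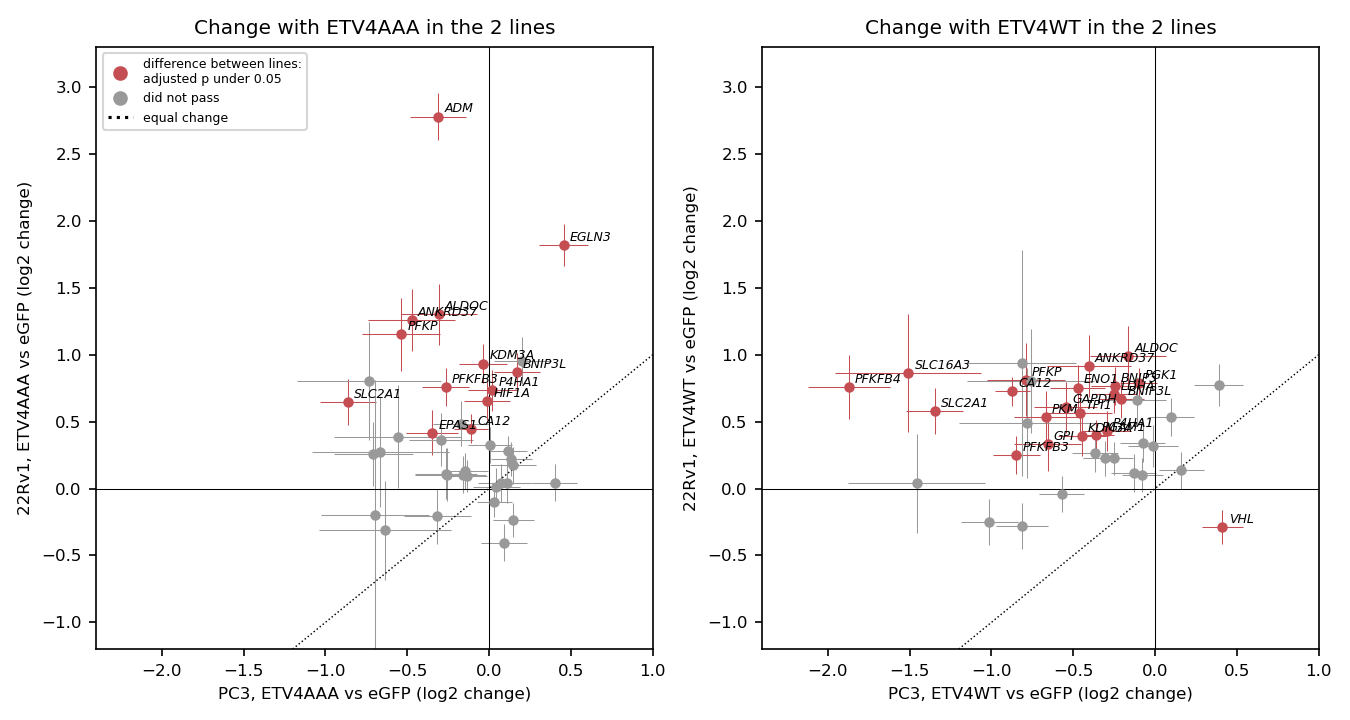
Log2 change against eGFP in 22Rv1 (vertical axis) and PC3 (horizontal axis) for ETV4AAA (left) and ETV4WT (right), with bars of ± SE, for 39 genes; SLC2A3 is left out because its 22Rv1 ETV4WT group holds 1 count. Red, labelled points are genes whose change differed between the lines at an adjusted p under 0.05 and the dotted line marks equal change; the bar of CA9, at -0.20 in 22Rv1 on the left, runs past the lower axis.

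Among the oxygen sensors, EGLN3, a HIF prolyl hydroxylase that is itself induced by HIF, changed most. It stood at 19.8 and 16.5 CPM in the 22Rv1 ETV4AAA libraries, 8.47 and 9.04 CPM in the ETV4WT libraries and 5.25 and 5.003 CPM in the eGFP libraries. The 3 groups did not overlap and formed a series with eGFP lowest, with a log2 change of 1.82 ± 0.16, adjusted p = 3.47e-06 for ETV4AAA and 0.77 ± 0.16, adjusted p = 0.0316 for ETV4WT. ETV4AAA exceeded ETV4WT as well (1.05 ± 0.15, adjusted p = 0.000346). PC3 levels of EGLN3 were 14.5 and 16.7 CPM in the libraries labelled ETV4AAA, 14.3 and 15.6 CPM in those labelled ETV4WT and 11.2 and 11.6 CPM with eGFP, and the constructs' changes of 0.45 and 0.39 did not pass. The effect of ETV4AAA was larger in 22Rv1 than in PC3 by 1.37 ± 0.22, adjusted p = 0.00105.

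HIF1A, which encodes the alpha subunit of HIF-1, was at 136 and 139.7 CPM in the 22Rv1 ETV4AAA libraries, 110.3 and 112 CPM in the ETV4WT libraries and 81.9 and 93.3 CPM in the eGFP libraries. Both ETV4AAA libraries were the highest of the line (0.66 ± 0.14, adjusted p = 0.00389), and the ETV4WT libraries lay between (0.34 ± 0.14, adjusted p = 0.288). PC3 levels of HIF1A were 429 and 521 CPM in the libraries labelled ETV4AAA, 397 and 510.3 CPM in those labelled ETV4WT and 484 and 473 CPM with eGFP, where the groups overlapped, and the effect of ETV4AAA on HIF1A differed between the lines by 0.67 ± 0.20, adjusted p = 0.0402, held in 7 of 16 alternatives. EPAS1, the alpha subunit of HIF-2, was at 5.57 and 4.94 CPM in the 22Rv1 ETV4AAA libraries, 3.200 and 3.27 CPM in the ETV4WT libraries and 4.23 and 3.64 CPM in the eGFP libraries. ETV4AAA exceeded ETV4WT (0.70 ± 0.17, adjusted p = 0.0106), while neither construct passed against eGFP. PC3 levels of EPAS1 were 23.3 and 19.6 CPM in the libraries labelled ETV4AAA, 16.9 and 14.2 CPM in those labelled ETV4WT and 26.6 and 28.05 CPM with eGFP, and the fall in the libraries labelled ETV4WT (-0.81 ± 0.16, adjusted p = 0.00318) left no overlap of the libraries. The effect of ETV4AAA on EPAS1 differed between the lines by 0.76 ± 0.23, adjusted p = 0.0421, held in 4 of 16 alternatives.

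VHL, which recognises hydroxylated HIF alpha for destruction, was at 67.6 and 55.2 CPM in the 22Rv1 ETV4AAA libraries, 58.3 and 59.8 CPM in the ETV4WT libraries and 73.9 and 70.4 CPM in the eGFP libraries, and no comparison passed in 22Rv1. PC3 levels of VHL were 111 and 119 CPM in the libraries labelled ETV4AAA, 129 and 147 CPM in those labelled ETV4WT and 104 and 103 CPM with eGFP, with a rise in the libraries labelled ETV4WT (0.41 ± 0.13, adjusted p = 0.0341) that held in 7 of 13 alternatives, and a difference between the lines of -0.70 ± 0.18, adjusted p = 0.0244. EGLN1, the main HIF prolyl hydroxylase, passed in no construct comparison, with log2 changes between -0.31 and 0.32.

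Of the transporters, SLC2A1, the widely expressed glucose transporter, changed in opposite directions with ETV4AAA in the 2 lines. It stood at 130.4 and 110.2 CPM in the 22Rv1 ETV4AAA libraries, 108 and 122 CPM in the ETV4WT libraries and 85.5 and 68.4 CPM in the eGFP libraries. All 4 construct libraries exceeded both eGFP libraries, and the rise passed for ETV4AAA (0.64 ± 0.17, adjusted p = 0.0128) and did not for ETV4WT (0.58 ± 0.17, adjusted p = 0.147). PC3 levels of SLC2A1 were 49.6 and 38.4 CPM in the libraries labelled ETV4AAA, 35.1 and 27.9 CPM in those labelled ETV4WT and 77.7 and 82.4 CPM with eGFP, with all 4 construct libraries below both eGFP libraries. The falls were -0.86 ± 0.17, adjusted p = 0.0165 for ETV4AAA and -1.35 ± 0.17, adjusted p = 0.000192 for ETV4WT. The fall with ETV4AAA did not pass when PC3 was fitted on its own (adjusted p = 0.0746) or without ETV4AAA replicate 2 (0.171), eGFP replicate 1 (0.102) or eGFP replicate 2 (0.166). The lines differed for both constructs, by 1.51 ± 0.24, adjusted p = 0.00115 for ETV4AAA and 1.92 ± 0.24, adjusted p = 0.000334 for ETV4WT.

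SLC16A3, which exports lactate, was at 56.02 and 34.7 CPM in the 22Rv1 ETV4AAA libraries, 45.00 and 49.8 CPM in the ETV4WT libraries and 33.03 and 19.1 CPM in the eGFP libraries, where ETV4AAA and eGFP replicates differed widely and no comparison passed. PC3 levels of SLC16A3 were 49.2 and 20.3 CPM in the libraries labelled ETV4AAA, 28.7 and 11.98 CPM in those labelled ETV4WT and 54.2 and 61.6 CPM with eGFP, and replicate 2 of each construct was far below replicate 1 (-1.51 ± 0.45, adjusted p = 0.0300 for ETV4WT, held in 9 of 13 alternatives). The lines differed in the effect of ETV4WT on SLC16A3 by 2.37 ± 0.63, adjusted p = 0.0295. SLC2A3, a glucose transporter of high affinity, was barely expressed, at 0.266 and 0.356 CPM in the 22Rv1 ETV4AAA libraries, 0.0218 and 0 CPM in the ETV4WT libraries and 0.144 and 0.0618 CPM in the eGFP libraries. These are 27, 1 and 10 counts, so that ETV4WT had 0.103 times the level of eGFP (95% exact interval 0.00236 to 0.721) and ETV4AAA 29.4 times that of ETV4WT (4.84 to 1203), counting error only. PC3 levels of SLC2A3 were 0.164 and 0.143 CPM in the libraries labelled ETV4AAA, 0.836 and 0.663 CPM in those labelled ETV4WT and 0.0201 and 0.0645 CPM with eGFP from 14, 78 and 4 counts, a log2 change of 4.09 ± 0.54, adjusted p = 0.000234 in the libraries labelled ETV4WT. SLC2A14, a near-identical copy of SLC2A3, could share its reads. The 3 annotated SLC2A3 pseudogenes held reads in the 22Rv1 ETV4WT library where SLC2A3 itself had 0 counts.

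The 14 glycolytic enzyme genes had a median log2 change of 0.20 with ETV4AAA and 0.55 with ETV4WT in 22Rv1, and of -0.26 and -0.51 in the PC3 libraries labelled ETV4AAA and ETV4WT. In 22Rv1, 3 of the 14 rose with ETV4AAA (ALDOC, PFKP and ENO1), a share of 21.4% against 17.4% of all genes, and 1 with ETV4WT (PGK1), 7.14% against 1.06%. In PC3, 5 fell in the libraries labelled ETV4WT (HK1, GPI, PFKP, PGAM1 and PKM), 35.7% against 10.7%. The effect of ETV4WT differed between the lines for 9 of the 14, all more positive in 22Rv1, when 4.92% of all genes differed in that direction.

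In the upper part of the pathway, HK1, the first enzyme of glucose use, was at 183 and 159.6 CPM in the 22Rv1 ETV4AAA libraries, 142 and 161 CPM in the ETV4WT libraries and 159.6 and 153 CPM in the eGFP libraries, with no call in 22Rv1. PC3 levels of HK1 were 282 and 228 CPM in the libraries labelled ETV4AAA, 204 and 175 CPM in those labelled ETV4WT and 282 and 281 CPM with eGFP, and the fall with ETV4WT (-0.57 ± 0.14, adjusted p = 0.0103) held in 9 of 13 alternatives. GPI, which isomerises glucose 6-phosphate, was at 559.6 and 511 CPM in the 22Rv1 ETV4AAA libraries, 753 and 806 CPM in the ETV4WT libraries and 665 and 573 CPM in the eGFP libraries. PC3 levels of GPI were 498 and 328 CPM in the libraries labelled ETV4AAA, 389.5 and 264 CPM in those labelled ETV4WT and 499.7 and 529.7 CPM with eGFP, with replicate 2 of each construct lowest (-0.66 ± 0.20, adjusted p = 0.0373 for ETV4WT). The GPI response to ETV4WT differed between the lines (0.99 ± 0.29, adjusted p = 0.0450).

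PFKP was at 5.86 and 5.34 CPM in the 22Rv1 ETV4AAA libraries, 4.25 and 4.59 CPM in the ETV4WT libraries and 3.02 and 2.02 CPM in the eGFP libraries. All 4 construct libraries exceeded the eGFP libraries (1.15 ± 0.27, adjusted p = 0.00653 for ETV4AAA, 0.81 ± 0.27, adjusted p = 0.199 for ETV4WT), from a very low base. PC3 levels of PFKP were 143 and 89.6 CPM in the libraries labelled ETV4AAA, 118 and 77.6 CPM in those labelled ETV4WT and 164 and 174 CPM with eGFP, all construct libraries being below eGFP (-0.79 ± 0.24, adjusted p = 0.0322 for ETV4WT). The lines differed by 1.69 ± 0.36, adjusted p = 0.00699 for ETV4AAA and 1.60 ± 0.36, adjusted p = 0.0135 for ETV4WT. ALDOC was at 422 and 409 CPM in the 22Rv1 ETV4AAA libraries, 339 and 329.6 CPM in the ETV4WT libraries and 179 and 158 CPM in the eGFP libraries, so that the 3 groups did not overlap (1.30 ± 0.23, adjusted p = 0.000943 for ETV4AAA, 0.99 ± 0.23, adjusted p = 0.0573 for ETV4WT). PC3 levels of ALDOC were 16.1 and 10.97 CPM in the libraries labelled ETV4AAA, 19.1 and 10.9 CPM in those labelled ETV4WT and 15.7 and 17.9 CPM with eGFP and the groups overlapped. The lines differed in the ALDOC response by 1.61 ± 0.32, adjusted p = 0.00506 for ETV4AAA and 1.15 ± 0.32, adjusted p = 0.0381 for ETV4WT.

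In the lower part of the pathway, PGK1, which makes the first ATP of glycolysis, was at 1743 and 1858 CPM in the 22Rv1 ETV4AAA libraries, 2747 and 2369 CPM in the ETV4WT libraries and 1447 and 1517 CPM in the eGFP libraries. ETV4WT had the 2 highest libraries (0.79 ± 0.11, adjusted p = 0.00421 against eGFP), and ETV4AAA was lower than ETV4WT (-0.51 ± 0.11, adjusted p = 0.00673). PC3 levels of PGK1 were 1574 and 1587 CPM in the libraries labelled ETV4AAA, 1388 and 1331 CPM in those labelled ETV4WT and 1483 and 1434 CPM with eGFP, with no call, and the lines differed in the effect of ETV4WT (0.89 ± 0.16, adjusted p = 0.00397). PGAM1, the mutase downstream of PGK1, was at 225 and 241 CPM in the 22Rv1 ETV4AAA libraries, 353 and 308 CPM in the ETV4WT libraries and 247 and 254 CPM in the eGFP libraries, again highest with ETV4WT and lower with ETV4AAA (-0.50 ± 0.11, adjusted p = 0.00530). PC3 levels of PGAM1 were 333 and 318 CPM in the libraries labelled ETV4AAA, 255 and 239.9 CPM in those labelled ETV4WT and 321 and 315 CPM with eGFP, lowest with ETV4WT (-0.36 ± 0.11, adjusted p = 0.0317 against eGFP, held in 3 of 13 alternatives). Its response to ETV4WT differed between the lines by 0.76 ± 0.15, adjusted p = 0.00732.

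ENO1, enolase of most tissues, was at 2544 and 2312 CPM in the 22Rv1 ETV4AAA libraries, 2972 and 2880.2 CPM in the ETV4WT libraries and 1834 and 1634 CPM in the eGFP libraries, and all 4 construct libraries exceeded eGFP (0.49 ± 0.17, adjusted p = 0.0482 for ETV4AAA, 0.75 ± 0.17, adjusted p = 0.0556 for ETV4WT). PC3 levels of ENO1 were 2094 and 1525 CPM in the libraries labelled ETV4AAA, 1679.6 and 1255 CPM in those labelled ETV4WT and 1997 and 2079.6 CPM with eGFP, with no call, and the lines' responses to ETV4WT differed by 1.23 ± 0.24, adjusted p = 0.00633. PKM, pyruvate kinase of most tissues, was at 2396 and 2174 CPM in the 22Rv1 ETV4AAA libraries, 2543 and 2589.8 CPM in the ETV4WT libraries and 1889 and 1657 CPM in the eGFP libraries. PC3 levels of PKM were 2054 and 1382 CPM in the libraries labelled ETV4AAA, 1552 and 1095 CPM in those labelled ETV4WT and 2027 and 2181 CPM with eGFP, with a fall in the libraries labelled ETV4WT (-0.67 ± 0.20, adjusted p = 0.0280) held in 8 of 13 alternatives and a difference between lines of 1.20 ± 0.28, adjusted p = 0.0148.

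GAPDH was at 6078 and 6038 CPM in the 22Rv1 ETV4AAA libraries, 8902 and 8191 CPM in the ETV4WT libraries and 5855 and 5359 CPM in the eGFP libraries, and TPI1 at 3418 and 3321 CPM in the 22Rv1 ETV4AAA libraries, 4860.1 and 4434 CPM in the ETV4WT libraries and 3313 and 2966 CPM in the eGFP libraries. Both were highest with ETV4WT in 22Rv1, without passing (0.61 and 0.57). PC3 levels of GAPDH were 2585 and 1747 CPM in the libraries labelled ETV4AAA, 2079 and 1481 CPM in those labelled ETV4WT and 2557 and 2640.1 CPM with eGFP. PC3 levels of TPI1 were 1037 and 704 CPM in the libraries labelled ETV4AAA, 899 and 609 CPM in those labelled ETV4WT and 1009 and 1069 CPM with eGFP. Replicate 2 of each PC3 construct was the lowest for both genes, and the effects of ETV4WT differed between the lines by 1.15 ± 0.27, adjusted p = 0.0168 for GAPDH and 1.03 ± 0.28, adjusted p = 0.0341 for TPI1. The 62 annotated GAPDH pseudogenes held 1.58% to 2.60% as many counts as GAPDH itself. HK2, PFKL, PFKM and ALDOA passed in no construct comparison or line difference, with log2 changes between -0.78 (PFKL) and 0.80 (ALDOA) in the construct comparisons.

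The PFKFB enzymes set the level of fructose 2,6-bisphosphate, the strongest activator of phosphofructokinase. PFKFB3 was at 62.1 and 49.7 CPM in the 22Rv1 ETV4AAA libraries, 37.1 and 41.6 CPM in the ETV4WT libraries and 35.1 and 30.9 CPM in the eGFP libraries, highest with ETV4AAA (0.76 ± 0.14, adjusted p = 0.00167 against eGFP and 0.51 ± 0.14, adjusted p = 0.0231 against ETV4WT). PC3 levels of PFKFB3 were 107 and 92.8 CPM in the libraries labelled ETV4AAA, 70.4 and 62.4 CPM in those labelled ETV4WT and 119 and 120.4 CPM with eGFP, lowest in the libraries labelled ETV4WT (-0.85 ± 0.14, adjusted p = 0.00126), with ETV4AAA above ETV4WT (0.58 ± 0.14, adjusted p = 0.0205). PFKFB4 was at 42.9 and 34.4 CPM in the 22Rv1 ETV4AAA libraries, 54.2 and 54.99 CPM in the ETV4WT libraries and 36.8 and 27.7 CPM in the eGFP libraries, and no comparison passed in 22Rv1. PC3 levels of PFKFB4 were 23.3 and 17.7 CPM in the libraries labelled ETV4AAA, 11.5 and 6.75 CPM in those labelled ETV4WT and 30.6 and 36.2 CPM with eGFP. Its fall in the libraries labelled ETV4WT (-1.87 ± 0.25, adjusted p = 0.000237) was the deepest of the 40 genes in that comparison, and ETV4AAA was above ETV4WT (1.17 ± 0.25, adjusted p = 0.00944). The lines differed in the effect of ETV4WT by 2.63 ± 0.35, adjusted p = 0.000435 for PFKFB4 and 1.10 ± 0.20, adjusted p = 0.00418 for PFKFB3, and in the effect of ETV4AAA on PFKFB3 by 1.02 ± 0.20, adjusted p = 0.00450.

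At the end of the pathway, LDHA, which reduces pyruvate to lactate, was at 2045 and 2272 CPM in the 22Rv1 ETV4AAA libraries, 3351 and 2890.1 CPM in the ETV4WT libraries and 1777 and 2053 CPM in the eGFP libraries. Both ETV4WT libraries were above the other 4 (0.70 ± 0.14, adjusted p = 0.0283 against eGFP), and ETV4AAA was lower than ETV4WT (-0.53 ± 0.14, adjusted p = 0.0157). PC3 levels of LDHA were 3787 and 4445 CPM in the libraries labelled ETV4AAA, 2934 and 3325 CPM in those labelled ETV4WT and 3743 and 3696 CPM with eGFP, lowest with ETV4WT without passing (-0.25), and the lines differed (0.95 ± 0.20, adjusted p = 0.00841). PDK1, a kinase that inhibits pyruvate dehydrogenase, was at 31.04 and 33.3 CPM in the 22Rv1 ETV4AAA libraries, 48.8 and 43.5 CPM in the ETV4WT libraries and 29.3 and 34.5 CPM in the eGFP libraries, lower with ETV4AAA than with ETV4WT (-0.52 ± 0.14, adjusted p = 0.0202). PC3 levels of PDK1 were 82.1 and 98.4 CPM in the libraries labelled ETV4AAA, 85.5 and 102 CPM in those labelled ETV4WT and 85.8 and 89.3 CPM with eGFP, with no call. LDHB, the heart-type subunit, passed nowhere among the construct comparisons (log2 changes from -0.27 to 0.32).

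**Figure D4:**
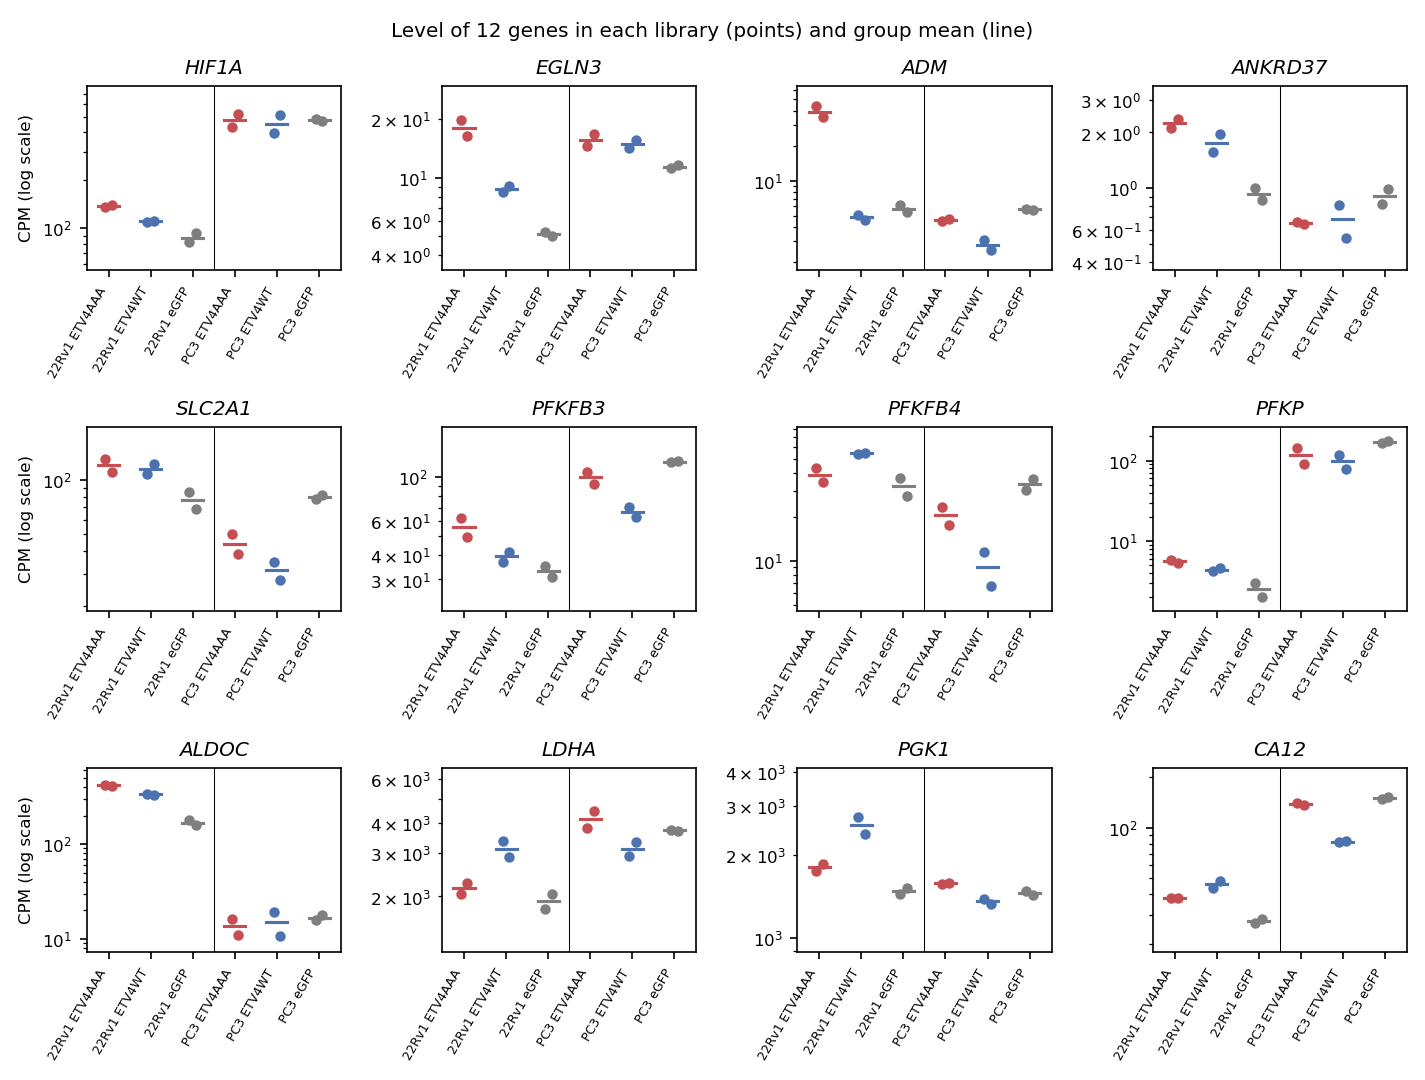
CPM on a log axis of 12 of the genes in each library (points) with the group mean (line), in the order ETV4AAA (red), ETV4WT (blue) and eGFP (grey) for 22Rv1, then PC3. ADM and EGLN3 are highest with ETV4AAA in 22Rv1, LDHA and PGK1 are highest there with ETV4WT, and SLC2A1 and CA12 are above eGFP in 22Rv1 and below it in the PC3 libraries labelled ETV4WT.

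Among the other HIF targets, ADM, which encodes the vasodilator peptide adrenomedullin, had the largest rise of the 40 genes with ETV4AAA in 22Rv1. It stood at 43.5 and 35.1 CPM in the 22Rv1 ETV4AAA libraries, 5.09 and 4.55 CPM in the ETV4WT libraries and 6.11 and 5.33 CPM in the eGFP libraries. Both ETV4AAA libraries were far above the other 4, which lay close together, a 6.87-fold rise (2.78 ± 0.18, adjusted p = 2.24e-07). PC3 levels of ADM were 4.48 and 4.66 CPM in the libraries labelled ETV4AAA, 3.08 and 2.53 CPM in those labelled ETV4WT and 5.74 and 5.61 CPM with eGFP, lowest in the libraries labelled ETV4WT (-1.01 ± 0.18, adjusted p = 0.00152), with ETV4AAA above ETV4WT (0.70 ± 0.18, adjusted p = 0.0243). The effect of ETV4AAA differed between the lines by 3.09 ± 0.24, adjusted p = 4.26e-06.

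ANKRD37, a small ankyrin-repeat protein induced by HIF-1, was at 2.11 and 2.37 CPM in the 22Rv1 ETV4AAA libraries, 1.57 and 1.96 CPM in the ETV4WT libraries and 1.01 and 0.865 CPM in the eGFP libraries, above eGFP in all 4 construct libraries (1.26 ± 0.23, adjusted p = 0.00134 for ETV4AAA, 0.92 ± 0.23, adjusted p = 0.0899 for ETV4WT). PC3 levels of ANKRD37 were 0.657 and 0.646 CPM in the libraries labelled ETV4AAA, 0.818 and 0.543 CPM in those labelled ETV4WT and 0.825 and 0.989 CPM with eGFP, and the lines differed by 1.73 ± 0.35, adjusted p = 0.00533 for ETV4AAA and 1.32 ± 0.35, adjusted p = 0.0290 for ETV4WT. KDM3A, a histone demethylase for which oxygen is a substrate, was at 82.6 and 86.6 CPM in the 22Rv1 ETV4AAA libraries, 58.8 and 57.6 CPM in the ETV4WT libraries and 40.1 and 48.5 CPM in the eGFP libraries, a series with ETV4AAA highest (0.93 ± 0.15, adjusted p = 0.000477 against eGFP and 0.54 ± 0.15, adjusted p = 0.0191 against ETV4WT). PC3 levels of KDM3A were 56.1 and 68.5 CPM in the libraries labelled ETV4AAA, 41.9 and 51.7 CPM in those labelled ETV4WT and 64.2 and 63.5 CPM with eGFP, with a fall in the libraries labelled ETV4WT (-0.45 ± 0.15, adjusted p = 0.0462) held in 5 of 13 alternatives. The lines differed in both KDM3A responses (0.97 for ETV4AAA, 0.84 for ETV4WT).

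The collagen prolyl hydroxylase subunits rose together in 22Rv1. P4HA1 was at 176 and 201 CPM in the 22Rv1 ETV4AAA libraries, 162 and 143 CPM in the ETV4WT libraries and 106 and 121 CPM in the eGFP libraries, and P4HA2 was at 24.4 and 24.5 CPM in the 22Rv1 ETV4AAA libraries, 20.5 and 19.4 CPM in the ETV4WT libraries and 13.5 and 11.8 CPM in the eGFP libraries. Both rose with ETV4AAA (0.73 ± 0.15, adjusted p = 0.00295 for P4HA1, 0.95 ± 0.18, adjusted p = 0.00141 for P4HA2), and the ETV4WT libraries lay between without passing. PC3 levels of P4HA1 were 194 and 249 CPM in the libraries labelled ETV4AAA, 160.2 and 195 CPM in those labelled ETV4WT and 219.6 and 217 CPM with eGFP. PC3 levels of P4HA2 were 19.6 and 16.1 CPM in the libraries labelled ETV4AAA, 16.6 and 12.1 CPM in those labelled ETV4WT and 14.8 and 16.2 CPM with eGFP, and no comparison passed for either gene in PC3. The lines differed in the response of P4HA1 to ETV4AAA (0.71 ± 0.21, adjusted p = 0.0405) and to ETV4WT (0.72 ± 0.21, adjusted p = 0.0462).

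BNIP3 and BNIP3L, receptors for the removal of mitochondria, followed the constructs differently. BNIP3 was at 197 and 232 CPM in the 22Rv1 ETV4AAA libraries, 390.5 and 318 CPM in the ETV4WT libraries and 194 and 223 CPM in the eGFP libraries, highest in the ETV4WT libraries and overlapping between ETV4AAA and eGFP (0.76 ± 0.14, adjusted p = 0.0201 against eGFP, and -0.73 ± 0.14, adjusted p = 0.00277 for ETV4AAA against ETV4WT). BNIP3L was at 291 and 312 CPM in the 22Rv1 ETV4AAA libraries, 277 and 247 CPM in the ETV4WT libraries and 149 and 180.4 CPM in the eGFP libraries, above eGFP with both constructs (0.87 ± 0.14, adjusted p = 0.000536 for ETV4AAA, 0.67 ± 0.14, adjusted p = 0.0375 for ETV4WT). PC3 levels of BNIP3 were 159 and 189.8 CPM in the libraries labelled ETV4AAA, 135 and 144 CPM in those labelled ETV4WT and 167 and 164 CPM with eGFP. PC3 levels of BNIP3L were 92.3 and 111 CPM in the libraries labelled ETV4AAA, 72.99 and 83.7 CPM in those labelled ETV4WT and 94.99 and 86.05 CPM with eGFP. Neither passed in PC3, and the effect of ETV4WT differed between the lines by 1.01 ± 0.20, adjusted p = 0.00663 for BNIP3 and 0.88 ± 0.20, adjusted p = 0.0135 for BNIP3L. For ETV4AAA it differed for BNIP3L by 0.70 ± 0.20, adjusted p = 0.0308. The 39 annotated BNIP3 pseudogenes held 1.49% to 2.53% as many counts as BNIP3.

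CA12, a membrane carbonic anhydrase, was the gene that passed in opposite directions with ETV4WT in the 2 lines. It stood at 37.8 and 37.7 CPM in the 22Rv1 ETV4AAA libraries, 43.8 and 47.8 CPM in the ETV4WT libraries and 26.9 and 28.5 CPM in the eGFP libraries, with replicates close together. The rise was 0.73 ± 0.11, adjusted p = 0.00434 for ETV4WT and 0.45 ± 0.11, adjusted p = 0.00720 for ETV4AAA. PC3 levels of CA12 were 142 and 137 CPM in the libraries labelled ETV4AAA, 81.6 and 82.8 CPM in those labelled ETV4WT and 149 and 152 CPM with eGFP, and the libraries labelled ETV4WT were the lowest (-0.87 ± 0.11, adjusted p = 0.000122 against eGFP), with ETV4AAA above ETV4WT by 0.76 ± 0.11, adjusted p = 0.000592. The lines differed by 1.60 ± 0.15, adjusted p = 5.00e-05 for ETV4WT and 0.56 ± 0.15, adjusted p = 0.0245 for ETV4AAA. CA9 passed in no construct comparison, its 22Rv1 groups holding 7, 17 and 9 counts with ETV4AAA, ETV4WT and eGFP.

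NDRG1, a hypoxia-induced gene linked to growth arrest, was at 155 and 145 CPM in the 22Rv1 ETV4AAA libraries, 207 and 222 CPM in the ETV4WT libraries and 203 and 193 CPM in the eGFP libraries, lower with ETV4AAA than in the other groups (-0.40 ± 0.14, adjusted p = 0.0454 against eGFP, held in 5 of 12 alternatives, and -0.52 ± 0.14, adjusted p = 0.0180 against ETV4WT). PC3 levels of NDRG1 were 411 and 376 CPM in the libraries labelled ETV4AAA, 389 and 284 CPM in those labelled ETV4WT and 369.7 and 368 CPM with eGFP, with no call. ANGPTL4 was at 25.1 and 19.9 CPM in the 22Rv1 ETV4AAA libraries, 27.6 and 29.8 CPM in the ETV4WT libraries and 34.3 and 21.5 CPM in the eGFP libraries, with overlapping groups. PC3 levels of ANGPTL4 were 3.94 and 1.79 CPM in the libraries labelled ETV4AAA, 2.34 and 0.904 CPM in those labelled ETV4WT and 4.33 and 4.64 CPM with eGFP, a fall in the libraries labelled ETV4WT (-1.46 ± 0.42, adjusted p = 0.0257) that was lost without both construct libraries of replicate 2. ERO1A and MXI1 passed in no construct comparison.

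The balance between related enzymes, as shares of their summed CPM per kilobase, shifted in some families. EGLN3 held 20.1% ± 1.72 of the EGLN1 and EGLN3 sum with ETV4AAA, 11.5% ± 0.270 with ETV4WT and 8.19% ± 0.362 with eGFP in 22Rv1 (SD, n = 2 each). The EGLN3 share in PC3 was 17.9% ± 0.789 with ETV4AAA, 20.6% ± 1.09 with ETV4WT and 13.8% ± 0.460 with eGFP, highest with ETV4WT. BNIP3 held 36.4% ± 1.51 of the BNIP3 and BNIP3L sum with ETV4AAA, 52.1% ± 1.61 with ETV4WT and 50.6% ± 0.877 with eGFP in 22Rv1. LDHA held 54.0% ± 0.724, 58.5% ± 1.29 and 51.8% ± 0.634 of the LDHA and LDHB sum in the same 3 groups, highest with ETV4WT. In PC3 the LDHA share was 56.8% ± 0.663 with ETV4AAA, 52.2% ± 1.08 with ETV4WT and 56.2% ± 0.387 with eGFP, lowest with ETV4WT. PFKP held 0.953% ± 0.141 of the 3 phosphofructokinase subunits in 22Rv1 eGFP libraries and 57.8% ± 0.192 in PC3 eGFP libraries. These shares were not tested.

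Genes of the same pathways outside the 40 were described from 3 further lists, named by the lowest adjusted p. Of 29 other hypoxia-induced genes tested, 14 rose and 2 fell with ETV4AAA in 22Rv1, when 17.4% of all genes rose and 14.4% fell. With ETV4WT in 22Rv1, 2 rose and 1 fell, when 1.06% of all genes rose and 0.439% fell. In the PC3 libraries labelled ETV4WT, 8 rose and 10 fell, when 12.7% of all genes rose and 10.7% fell. BHLHE40, a transcriptional repressor, was at 27.3 and 23.5 CPM in the 22Rv1 ETV4AAA libraries, 2.02 and 2.67 CPM in the ETV4WT libraries and 0.964 and 1.28 CPM in the eGFP libraries (4.50 ± 0.19, adjusted p = 9.49e-09 for ETV4AAA). STC1, a secreted glycoprotein, was at 17.5 and 18.98 CPM in the 22Rv1 ETV4AAA libraries, 4.09 and 4.29 CPM in the ETV4WT libraries and 3.38 and 3.91 CPM in the eGFP libraries (2.32 ± 0.18, adjusted p = 1.42e-06), and CCNG2, an atypical cyclin, rose by 1.71 ± 0.16, adjusted p = 7.00e-06. ADM fell while BHLHE40 rose in the PC3 libraries labelled ETV4WT (0.83 ± 0.15, adjusted p = 0.00230).

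Of 30 other glycolysis and pyruvate genes tested, 5 rose and 9 fell with ETV4AAA in 22Rv1 (46.7% in all, against 31.8% of all genes), and 3 rose and 3 fell in the PC3 libraries labelled ETV4WT (20% in all, against 23.4% of all genes). PDK4, a paralogue of PDK1, was at 95.2 and 89.4 CPM in the 22Rv1 ETV4AAA libraries, 61.9 and 65.6 CPM in the ETV4WT libraries and 27.5 and 30.9 CPM in the eGFP libraries (1.66 ± 0.14, adjusted p = 2.62e-06 for ETV4AAA, 1.13 ± 0.14, adjusted p = 0.00126 for ETV4WT), whereas PDK1 itself did not pass in either. TIGAR, which opposes the PFKFB enzymes, rose with ETV4AAA in 22Rv1 (1.19 ± 0.17, adjusted p = 0.000245). LDHC, the lactate dehydrogenase subunit of testis, rose in the PC3 libraries labelled ETV4WT (3.35 ± 0.51, adjusted p = 0.000625). Of 15 other genes of the HIF pathway, 1 fell with ETV4AAA in 22Rv1 (CITED2), which is 6.67% against 31.8% of all genes. In the PC3 libraries labelled ETV4WT 2 rose, ARNT2 (2.76 ± 0.21, adjusted p = 5.38e-06) and CUL2 (0.54 ± 0.14, adjusted p = 0.0174), which is 13.3% against 23.4% of all genes. Between the constructs in 22Rv1, ARNT was higher (0.39 ± 0.11, adjusted p = 0.0255) and RBX1, a ring protein of the VHL ligase, lower (-0.50 ± 0.13, adjusted p = 0.0184) with ETV4AAA.

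The replicates differed along with the base composition of the transcripts. The 40 genes had a median GC content of 53.7%, against 49.1% over all genes tested. Across 23155 genes, which share their libraries and are not replicates, the log2 difference of replicate 1 minus replicate 2 correlated with GC content at r = 0.55 in the PC3 libraries labelled ETV4AAA, 0.59 in those labelled ETV4WT and -0.12 in PC3 eGFP. The values in 22Rv1 were 0.31 with ETV4AAA, -0.16 with ETV4WT and 0.45 with eGFP. SLC16A3, PFKL, ALDOA and ANGPTL4, the 4 of the 40 genes with the highest GC content, were higher in replicate 1 of both PC3 constructs by 0.81 to 1.23 on the log2 scale of CPM + 1. After a correction of each library for this trend, chosen after seeing the data, 24 of the 40 genes rose and 0 fell with ETV4WT in 22Rv1, when 8.75% of all genes changed. Likewise 26 fell and 1 rose in the PC3 libraries labelled ETV4WT, when 36.3% of all genes changed (14.5% up, 21.9% down), and 15 of the 16 uncorrected calls were kept. Before the correction 12.7% of all genes rose and 10.7% fell there, so falls became more frequent over all genes as well. The uncorrected log2 changes against eGFP also correlated with GC content. Their Pearson r was -0.27 (ETV4AAA) and -0.18 (ETV4WT) in PC3, and 0.05 and 0.11 in 22Rv1. The rank correlations (Spearman) were -0.43 and -0.31 in PC3, and 0.05 and 0.15 in 22Rv1. For the differences between lines the Pearson r was 0.18 (ETV4AAA) and 0.21 (ETV4WT), and the rank correlation 0.26 and 0.31. The part of GC content in the uncorrected values was not tested further.

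**Figure D5:**
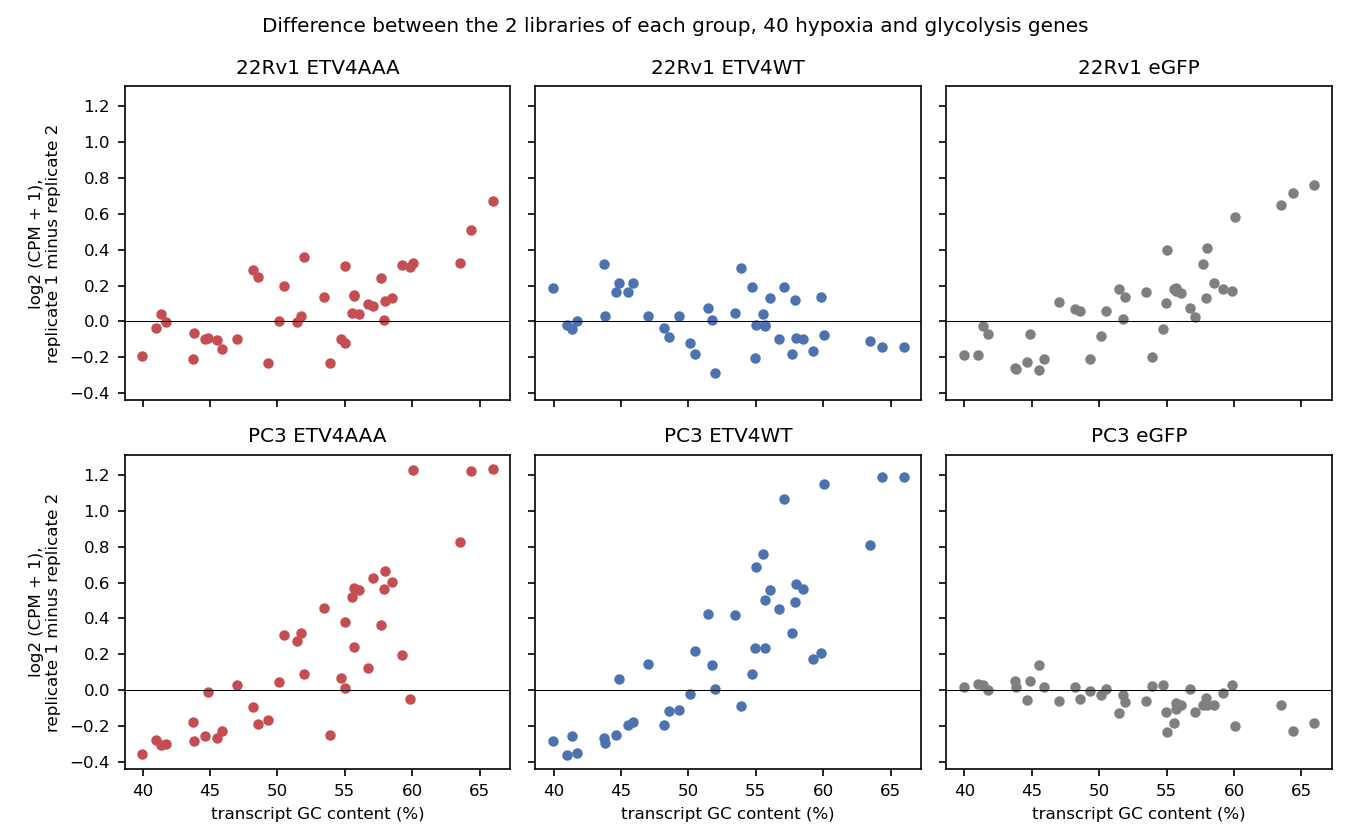
Difference between the 2 libraries of each group (log2 of CPM + 1, replicate 1 minus replicate 2, vertical axis) against transcript GC content in percent (horizontal axis) for the 40 genes, with 22Rv1 in the top row and PC3 in the bottom row. The points climb with GC content in both PC3 constructs and stay near 0 in PC3 eGFP.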

How the data were processed

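Raw counts per gene, keyed by Ensembl ID, were deposited by the authors for 12 libraries as whole numbers with no normalization. Per the submitters' processing notes, FastQC 0.11.9 and STAR 2.5.3a were used with GRCh38. The sources used here do not say how reads were counted, whether by strand or with which annotation, so genes with near-identical copies or antisense partners are uncertain. Gene names came from GENCODE 29 (99.55% of IDs) and all sample columns of the table were used.

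Counts were scaled by TMM and tested across 23238 of 58302 genes with edgeR 4.0.16 (R 4.3.3; glmQLFit and glmQLFTest, filterByExpr filter, all 12 libraries in 1 fit with 6 groups, 6 residual degrees of freedom, Benjamini-Hochberg adjustment over all genes, threshold 0.05). Each standard error (SE) was obtained from the log2 change and its F statistic, as the ratio of the change to the root of F. CPM values were computed from TMM-scaled library sizes. The line differences are contrasts of contrasts. The pipeline was tested on simulated data drawn without the GC-linked differences between replicates, so that test does not cover them. Alternatives were DESeq2 1.42.0 size factors, upper-quartile factors, the DESeq2 Wald test, no filter, each line on its own, a replicate block, left-out libraries and a GC correction.

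The 40 genes and the other lists were chosen with earlier results of these data known. Every library's values are given for genes that passed in a construct comparison or a line difference, and from each other list up to 4 genes with the lowest adjusted p; some genes these rules name are not reported here. Library totals of 41698738 to 51199207 counts limit only genes with few counts, and intervals cover counting error only. The labels also describe single-cell sequencing, not analysed here.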

Additional observations from a re-analysis of the deposited data

Results flagged for a closer look

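The effect of a construct differed between the lines for 35 pairs of gene and construct, by the interaction contrast of edgeR at an adjusted p under 0.05. Values are the log2 change in 22Rv1 minus that in PC3, whose libraries are named by their labels.

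For ETV4WT the change was less positive in 22Rv1 for VHL (-0.70) and SLC2A3 (-7.09). The SLC2A3 value rests on 1 count in the 22Rv1 ETV4WT libraries and is no measure of size. Among transporters and regulators of phosphofructokinase, the change was more positive in 22Rv1 for SLC2A1 (1.92), SLC16A3 (2.37), PFKFB3 (1.10) and PFKFB4 (2.63). Of the glycolytic enzymes, GPI (0.99), PFKP (1.60), ALDOC (1.15), TPI1 (1.03), GAPDH (1.15), PGK1 (0.89), PGAM1 (0.76), ENO1 (1.23) and PKM (1.20) differed, and so did LDHA (0.95). The other HIF targets were BNIP3 (1.01), BNIP3L (0.88), CA12 (1.60), ANKRD37 (1.32), P4HA1 (0.72) and KDM3A (0.84).

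For ETV4AAA the difference was 0.67 for HIF1A, 0.76 for EPAS1 and 1.37 for EGLN3. It was 1.51 for SLC2A1, 1.69 for PFKP, 1.61 for ALDOC and 1.02 for PFKFB3. Of the other HIF targets, it was 0.70 for BNIP3L, 0.56 for CA12, 3.09 for ADM, 1.73 for ANKRD37, 0.71 for P4HA1 and 0.97 for KDM3A. ETV4 itself was higher than in eGFP in all 22Rv1 construct libraries and in replicate 1, but not replicate 2, of the PC3 libraries labelled ETV4AAA and ETV4WT. The part of the ETV4 level in these differences was not tested.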

How the results depend on the processing

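Counts below are of the 40 genes at an adjusted p under 0.05 by edgeR unless named otherwise. 0 genes that passed reversed direction. With each line fitted on its own, the counts were 12 (22Rv1 ETV4WT against eGFP), 0 (PC3 ETV4AAA against eGFP), 9 (PC3 ETV4WT against eGFP) and 3 (PC3 ETV4AAA against ETV4WT). Over all genes the shares called were 2.33%, 2.36%, 19.8% and 8.39% in the same order. Without both PC3 construct libraries of replicate 2, PC3 ETV4WT gave 9 and PC3 ETV4AAA against ETV4WT 3. Without a filter, 22Rv1 ETV4WT gave 17 and PC3 ETV4AAA 6, when 2.13% and 5.08% of all genes were called. The ETV4AAA difference between lines gave 8 with DESeq2 size factors, with upper-quartile factors and in the DESeq2 Wald test. Leaving out 1 library gave 11 to 13 (22Rv1 ETV4AAA), 0 to 4 (22Rv1 ETV4WT), 4 to 10 (22Rv1 ETV4AAA against ETV4WT), 0 to 5 (PC3 ETV4AAA), 7 to 22 (PC3 ETV4WT), 2 to 6 (PC3 ETV4AAA against ETV4WT), 24 to 26 (22Rv1 against PC3 eGFP), 8 to 17 (ETV4AAA between lines) and 11 to 27 (ETV4WT between lines). The GC correction gave 24 (22Rv1 ETV4WT), 20 (22Rv1 ETV4AAA against ETV4WT), 4 (PC3 ETV4AAA), 27 (PC3 ETV4WT), 19 (PC3 ETV4AAA against ETV4WT), 20 (ETV4AAA between lines) and 35 (ETV4WT between lines). In PC3 and for 22Rv1 ETV4WT it also raised the share of all genes called, so the gain in calls was not limited to the 40. In PC3 that share went from 3.69% to 7.86% (ETV4AAA), from 23.4% to 36.3% (ETV4WT) and from 11% to 23.9% (ETV4AAA against ETV4WT). For 22Rv1 ETV4WT it went from 1.5% to 8.75%. Corrected shares are not given here for 22Rv1 ETV4AAA against ETV4WT and the line differences, so those counts are not set against all genes. The cause of these shifts was not tested.

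Same-numbered libraries deviated together in some pairs of groups and not in others (r from -0.455 to 0.877, highest between PC3 ETV4WT and PC3 ETV4AAA). These values cannot tell whether the numbers pair the samples, because replicate differences also followed GC content. A replicate block gave 15, 8 and 14 calls in 22Rv1 (ETV4AAA, ETV4WT, ETV4AAA against ETV4WT), 1, 22 and 5 in PC3, 28 between the eGFP groups, and 17 and 27 for the ETV4AAA and ETV4WT line differences. Over all genes the share called with the block was 1.51% for 22Rv1 ETV4WT. In PC3 it was 3.74%, 27.1% and 10.8% (ETV4AAA, ETV4WT, ETV4AAA against ETV4WT). Shares with the block are not given here for the other comparisons, so their counts are not set against all genes. With the block and the GC correction, chosen after seeing the data, the counts were 24 and 21 in 22Rv1 (ETV4WT, ETV4AAA against ETV4WT), 3, 26 and 19 in PC3, and 21 and 34 for the line differences. The PC3 shares over all genes were then 8.05%, 36.1% and 22.9%, and those of the other comparisons are not given here. Upper-quartile scaling moved the share of called genes that were higher to 69.2% from 54.4% (PC3 ETV4WT), 17% from 33.3% (PC3 ETV4AAA against ETV4WT), 59.4% from 49.2% (eGFP groups) and 24.4% from 39.4% (ETV4WT between lines), over all genes, and moved the median of all genes to 0.12 (PC3 ETV4WT), 0.32 (eGFP groups) and -0.16 (ETV4WT between lines).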
